A study of Mus musculus with 6 samples.

Results

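The genes described here are 10 transcripts of cytotoxic lymphocytes, of 46078 gene rows in the count table and 16757 tested. They are the granule proteins Gzma, Gzmb, Prf1 and Nkg7, the effectors Ccl5 and Fasl, and the surface receptors Cd7, Klrd1, Klrk1 and Cd160. They were read from mouse colon, where the epithelial fraction was washed from the tissue with EDTA and DTT. The groups are wild type mice (3 libraries) and Lingo2-/- mice (3 libraries), all aged 2 months and kept without challenge. The labels give the second genotype no allele, no strain and no tissue-specific driver. Nothing in them ties each library to an animal of its own, so p-values cover only library-to-library variation, part of which may be technical. All 10 genes were matched by symbol and all passed the filter on low counts. They were chosen because their levels differed between the genotypes in these libraries, so their values in that comparison are given as a description. Counts of members called by edgeR are printed below and support nothing.

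Cytotoxic lymphocytes store serine proteases called granzymes in secretory granules together with perforin, a protein that forms pores in the membrane of a target cell and lets the granzymes act inside it. Fas ligand kills by a separate route, by engaging the death receptor Fas on the target. Receptors first described on natural killer (NK) cells, among them the lectin-like proteins encoded by the Klr genes, tune the release of granules by binding stress-induced or MHC class I-like ligands. In the gut, lymphocytes that lie between epithelial cells carry many of these transcripts.

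The members lie on 8 chromosomes, and only Klrd1 and Klrk1 are nearest neighbours of each other, 11548 bases apart in the NK gene complex of chromosome 6. In GENCODE M21 (GRCm38), Gzma spans positions 113093825 to 113100981 of chromosome 13, minus strand, and Gzmb positions 56258838 to 56262260 of chromosome 14, minus strand. Klrd1 spans 129591782 to 129598775 of chromosome 6, plus strand, and Klrk1 spans 129610323 to 129623864, minus strand. Cd7 shares 122 exon bases with Gm11775 on the opposite strand, and Cd160 shares 68 with Pdzk1, also opposite. Whether the counting used strand is not given in the sources used here. Reads from these short overlaps cannot be assigned with certainty. Gzmb and the Klr genes belong to families with close relatives, and reads that aligned to more than one place were left out of the gene counts.

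The sequences before the transcription start are shown for 5 of the 10 members, and all 10 stood lower in the mutant libraries. RefSeq windows (GRCm38.p6) were matched for 7 members, which are Gzma, Gzmb, Prf1, Nkg7, Fasl, Klrk1 and Cd160. Each printed run holds the 250 bases before the start, written 5′ to 3′ on the gene's strand. Capitals mark every match to the motifs named in the next paragraph. RefSeq starts can differ from GENCODE gene starts, as for Nkg7 and Prf1. The windows are chr13:113100982-113101231 (Gzma, minus), chr14:56262335-56262584 (Gzmb, minus), chr10:61297586-61297835 (Prf1, plus), chr7:43436888-43437137 (Nkg7, plus) and chr6:129623865-129624114 (Klrk1, minus).
Gzma: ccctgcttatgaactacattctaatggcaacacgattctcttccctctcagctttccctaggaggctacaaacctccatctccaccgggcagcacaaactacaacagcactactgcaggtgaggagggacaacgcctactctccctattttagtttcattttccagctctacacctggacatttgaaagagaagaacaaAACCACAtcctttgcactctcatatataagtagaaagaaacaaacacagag
Gzmb: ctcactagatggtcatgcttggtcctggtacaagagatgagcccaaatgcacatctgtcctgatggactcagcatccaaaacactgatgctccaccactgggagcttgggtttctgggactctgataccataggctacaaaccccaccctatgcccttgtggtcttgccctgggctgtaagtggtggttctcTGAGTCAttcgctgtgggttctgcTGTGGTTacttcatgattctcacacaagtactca
Prf1: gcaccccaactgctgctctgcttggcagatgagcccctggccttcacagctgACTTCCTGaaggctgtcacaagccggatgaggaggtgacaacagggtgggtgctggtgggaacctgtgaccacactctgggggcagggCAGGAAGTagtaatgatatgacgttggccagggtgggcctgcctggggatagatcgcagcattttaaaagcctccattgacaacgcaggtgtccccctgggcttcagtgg
Nkg7: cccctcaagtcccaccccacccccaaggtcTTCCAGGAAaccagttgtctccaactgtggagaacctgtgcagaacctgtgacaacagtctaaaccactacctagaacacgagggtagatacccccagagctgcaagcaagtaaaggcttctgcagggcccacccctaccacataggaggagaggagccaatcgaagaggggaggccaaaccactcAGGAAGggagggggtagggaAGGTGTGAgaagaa
Klrk1: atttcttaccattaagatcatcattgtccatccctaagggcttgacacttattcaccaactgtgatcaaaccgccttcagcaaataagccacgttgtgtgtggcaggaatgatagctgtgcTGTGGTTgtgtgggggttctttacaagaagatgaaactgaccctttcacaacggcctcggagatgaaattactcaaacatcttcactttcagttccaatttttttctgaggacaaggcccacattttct

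Capitals in Gzma, Gzmb and Klrk1 hold the RUNX motif TGTGGTT, which reads AACCACA on the other strand. RUNX proteins are transcription factors of T and NK cells. The 7 matched members have 8 windows, as Cd160 has 2. The RUNX motif was in 5 of these 8 windows, from 4 members (Gzma, Gzmb, Klrk1 and Cd160). It was in 4.40% of all 32851 windows of that length. The ETS motif CAGGAAGT was in 2 member windows, Prf1 with 2 matches and Fasl, and in 2.69% of all windows. The shorter AGGAAG, which it contains, was in 5 of the 8 member windows (4 members) and in 29.5% of all windows. The T-box motif AGGTGTNA stood only in Nkg7 among the matched members and in 2.68% of all windows. The STAT motif TTCNNNGAA was in Nkg7 and Cd160 (7.02% of windows) and the AP-1 motif TGANTCA in Gzmb (6.75%). The letters TATAAA, the TATA box, were in none of the 7 members and in 12.4% of windows. Both strands were searched. These are matches of letters, which describe the windows and show no binding.

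Gene reads numbered 25010618 to 28029583 in the wild type and 7060769 to 13047682 in the mutant libraries, so each mutant library was shallower than each wild type library. The share of gene reads from mitochondrial genes was 45.3% to 48.4% in the wild type and 35.7% to 39.8% in the mutant libraries. Records outside any gene were 18.5% to 22.1% and 23.6% to 27.6% of all that the counting step recorded. Of the same total, records that aligned to more than 1 place were 36.5% to 36.9% in the wild type and 30.8% to 33.9% in the mutant libraries. The part of depth and of these shares in the differences below was not tested. The targeted gene Lingo2 was at 0, 7 and 0 reads (wild type replicates 1, 2 and 3) and at 1, 1 and 0 reads (mutant replicates 1, 2 and 3), too few to check the labels. Levels are CPM, read counts relative to the library's gene reads scaled by its TMM factor. On this scale 3 reads, the limit that a count of 0 allows, equal 0.112 to 0.138 CPM in the wild type and 0.207 to 0.373 CPM in the mutant libraries, for counting error only.

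Over the group, the summed level of the 10 genes was 292 ± 36.8 CPM (SD, n = 3) in the wild type and 70.5 ± 13.5 CPM in the mutant libraries, 24.2% of the wild type mean. The sums were 249.7, 308 and 318 CPM in wild type replicates 1, 2 and 3 and 85.2, 67.8 and 58.5 CPM in mutant replicates 1, 2 and 3. Every one of the 10 members was lower in each mutant library than in any wild type library, where 11.8% of all tested genes were lower in this way. By edgeR's quasi-likelihood test 9 of the 10 had an adjusted p under 0.05 with a lower value, as had 1.52% of all tested genes (2.57% in either direction); the count was 6 without mutant replicate 3 and 7 without wild type replicate 2 or mutant replicate 2. Since the members were chosen on this comparison, these counts support nothing. The median log2 fold change was −1.83 over the members and 0.00098 over all tested genes. In bulk RNA, fewer cells of a type and less RNA per cell cannot be told apart.

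**Figure D1:**
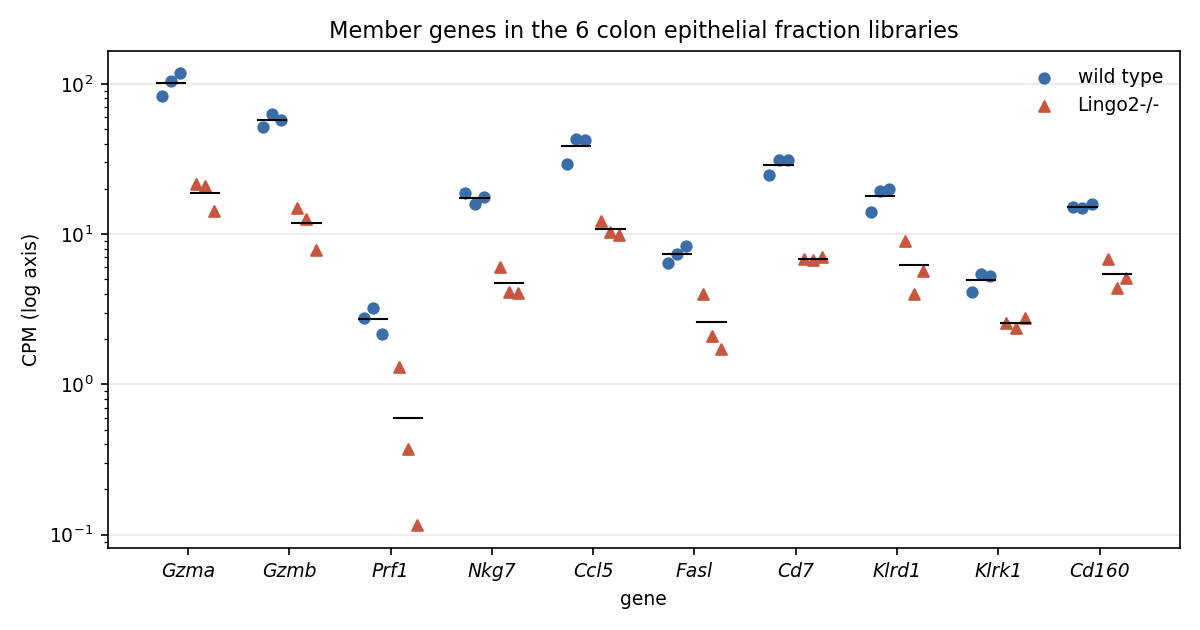
CPM of each member gene (log axis) in 3 wild type libraries (circles) and 3 Lingo2-/- libraries (triangles), with a line at each group's mean. For all 10 genes the triangles lie below the circles, and Prf1 spreads from 1.31 down to 0.116 CPM in the mutant libraries.

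Among the granule proteins, Gzma, a protease that cleaves after basic residues, had the highest level per exon length of the members. It stood at 83.3, 104 and 117 CPM in wild type replicates 1, 2 and 3 and at 21.5, 20.8 and 14.2 CPM in mutant replicates 1, 2 and 3. The groups did not overlap, the lowest wild type library was 3.87 times the highest mutant library, and the log2 fold change was −2.42 ± 0.18 (SE). Gzmb, a protease that cleaves after aspartate and can activate caspases, was at 51.3, 62.8 and 57.5 CPM in the wild type and 14.9, 12.7 and 7.86 CPM in the mutant libraries (−2.25 ± 0.19). For both granzymes mutant replicate 3 was the lowest library and wild type replicate 1 the lowest of its group. The ratio of Gzma to Gzmb was 1.78 ± 0.232 (SD, n = 3) in the wild type and 1.63 ± 0.180 in the mutant libraries, with overlapping values, so the balance between these proteases differed by less than their spread.

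Nkg7, a granule membrane protein involved in granule release, was at 18.7, 16.0 and 17.8 CPM in the wild type and 6.06, 4.11 and 4.04 CPM in the mutant libraries (−1.84 ± 0.17). Its wild type libraries were close together, and the mutant libraries sat at 27.1% of their mean. Prf1, the pore-forming perforin, was at 2.76, 3.24 and 2.17 CPM in the wild type and 1.31, 0.373 and 0.116 CPM in the mutant libraries. These mutant values rest on 19, 3 and 1 reads, so replicates 2 and 3 lay at or under the limit of 3 reads. Pooled over libraries, Prf1 had 198 wild type and 23 mutant reads, which puts the mutant level at 26.8% of wild type (95% exact interval 16.6% to 41.4%, counting error only). Its log2 fold change of −1.94 ± 0.48 had the widest error of the members and became −3.47 without mutant replicate 1.

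Ccl5, a chemokine that cytotoxic lymphocytes store and secrete, was at 29.2, 43.3 and 42.5 CPM in the wild type and 12.3, 10.3 and 9.94 CPM in the mutant libraries (−1.81 ± 0.16). Wild type replicate 1 was lower than the other wild type libraries and still 2.38 times the highest mutant library. Fasl, the membrane ligand of Fas, was at 6.39, 7.37 and 8.38 CPM in the wild type and 3.99, 2.12 and 1.73 CPM in the mutant libraries (−1.42 ± 0.26). Mutant replicate 1 stood apart from the other mutant libraries for this gene, and the fold change was −1.95 without it.

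Of the receptors, Cd7, an immunoglobulin-family protein of T and NK cells, was at 24.8, 31.1 and 30.9 CPM in the wild type and 6.81, 6.72 and 7.05 CPM in the mutant libraries (−2.08 ± 0.13). The mutant libraries were nearly level for this gene, with an SD of 0.169 CPM. Klrd1, also called CD94, pairs with NKG2 chains. It was at 14.0, 19.4 and 20.0 CPM in the wild type and 8.95, 3.98 and 5.66 CPM in the mutant libraries (−1.46 ± 0.26), and mutant replicate 1 was again the highest of its group. Cd160, a receptor for HVEM and MHC class I-like molecules, was at 15.1, 14.9 and 15.8 CPM in the wild type and 6.81, 4.35 and 5.08 CPM in the mutant libraries (−1.46 ± 0.16). Its wild type libraries had the smallest relative spread of the members there, a coefficient of variation of 2.99%. Klrk1, the activating receptor NKG2D that binds stress-induced ligands, had the smallest difference. It was at 4.13, 5.40 and 5.27 CPM in the wild type and 2.55, 2.36 and 2.77 CPM in the mutant libraries (−0.95 ± 0.21), 51.9% of the wild type mean, and the groups did not overlap.

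**Figure D2:**
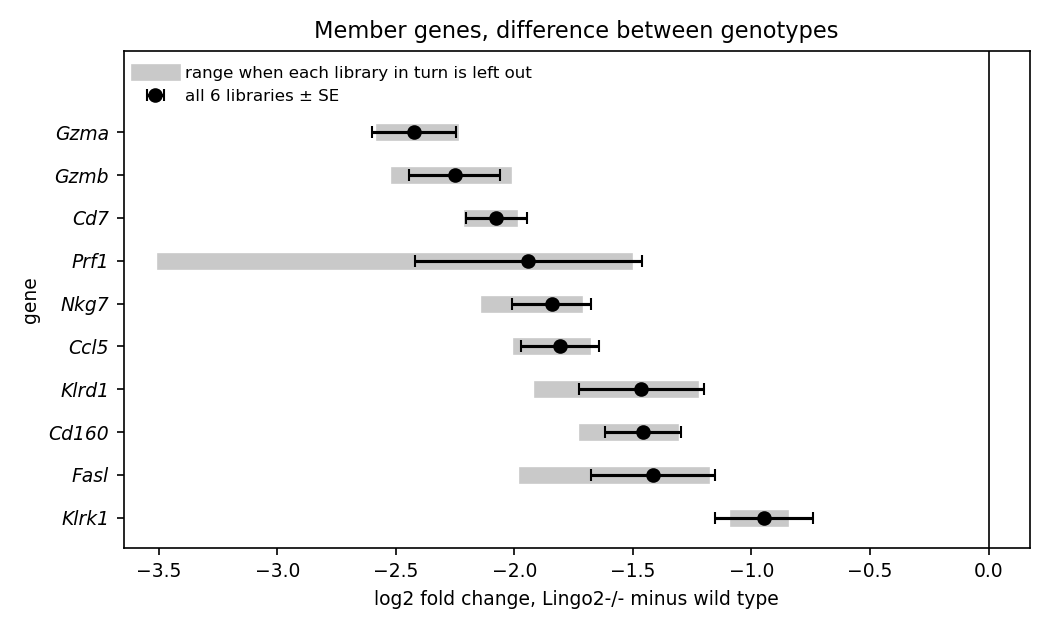
Log2 fold change of each member, Lingo2-/- minus wild type, with its SE (black) and the range of values when each library in turn is left out (grey). All values lie below 0, from −2.42 for Gzma to −0.95 for Klrk1, and the widest grey bar belongs to Prf1.

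Grouped by role, the granule proteins summed to 179 ± 20.4 CPM in the wild type and 36.0 ± 8.94 CPM in the mutant libraries, 20.1% of the wild type mean. Ccl5 and Fasl together stood at 29.4% and the receptors at 31.4% of wild type. Gzma and Gzmb made up 34.8% and 19.7% of the members' summed CPM in wild type, and 26.8% and 16.5% in the mutant libraries. Klrk1 made up 1.69% and 3.74%. Mutant replicate 1 was the highest mutant library for 8 of the 10 members and the lowest for none, and it was also the deepest of the mutant libraries. Wild type replicate 1 was the lowest of its group for 7. In the authors' deposited table the log2 fold changes of the members ran from −2.42 to −0.94, and none differed from the edgeR value by more than 0.068.

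To compare levels between genes, CPM was divided by the length of each gene's exons in kilobases. On this per-length scale the wild type order was Gzma (101 ± 17.1 CPM per kilobase), Ccl5 (39.9 ± 8.22), Gzmb (39.8 ± 3.998), Cd7 (25.5 ± 3.19), Nkg7 (19.1 ± 1.54), Klrd1 (13.9 ± 2.58), Cd160 (5.78 ± 0.173), Fasl (3.81 ± 0.515), Prf1 (1.05 ± 0.207) and Klrk1 (0.687 ± 0.0971). Ccl5 and Gzmb had overlapping values, and the other 8 pairs of neighbours in this order did not overlap in wild type. In the mutant libraries 6 of the same 9 pairs overlapped, among them Gzmb with Cd7 and Cd7 with Nkg7. The place of Klrk1 rests on the length used, because its annotated exons span 7183 bases in all and 3259 in the longest transcript. With the longest transcript Klrk1 stood at 1.51 and Prf1 at 1.10 CPM per kilobase.

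The members were next set against T cell transcripts of the same libraries, since T cells are a known source of these genes. The 16 listed T cell markers summed to 185 to 203 CPM in the wild type and 60.5 to 77.8 CPM in the mutant libraries, 34.7% of the wild type mean. Of these 12 fell and none rose by edgeR. With 1 library left out, 9 fell without mutant replicate 3, 13 without wild type replicate 3, and 10 in each other fit. The most significant were the CD3 chain Cd3g (−1.99 ± 0.13, edgeR adjusted p = 1.79e-05) and the receptor constant genes Trac (−1.77 ± 0.16) and Trbc2 (−1.70 ± 0.16). The part of T cell content in the members' difference was not tested. The summed members were 1.35, 1.52 and 1.58 times the summed T cell markers in the wild type and 1.09, 1.02 and 0.966 times in the mutant libraries, so this ratio was also lower in every mutant library. It stood at 0.693 of its wild type mean, and at 0.663 to 0.717 when each library in turn was left out. Gzma and Gzmb weigh most in the members' sum, and so in this ratio. Without them the members summed to 133 ± 15.4 CPM in the wild type and 39.8 ± 7.79 CPM in the mutant libraries. That is 30.0% of the wild type mean, beside 34.7% for the T cell markers. Against Cd3e alone the summed members were 21.1, 21.5 and 21.7 times its CPM in wild type replicates 1, 2 and 3. In mutant replicates 1, 2 and 3 they were 14.6, 15.1 and 9.92 times its CPM. Single markers ran from 21.9% (Tcrg-C1) to 73.2% (Cd2) of their wild type mean, with Cd3g at 25.2% and Cd3e at 39.8%. The summed members stood at 24.2%, so a ratio to a single marker depends on the marker, and only Cd3e was used.

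The members differed in this ratio. Gzma relative to T cell markers was 0.450, 0.515 and 0.585 in the wild type and 0.277, 0.313 and 0.235 in the mutant libraries, and Gzmb, Nkg7 and Cd7 were also lower in every mutant library. Klrk1 went the other way, with ratios of 0.0223, 0.0266 and 0.0262 in the wild type and 0.0327, 0.0356 and 0.0458 in the mutant libraries. The 5 others, Prf1, Ccl5, Fasl, Klrd1 and Cd160, overlapped between the genotypes. For Fasl, Klrd1 and Cd160 the mean mutant ratio was 0.994, 0.992 and 1.02 of the wild type mean. These ratios use the comparison that chose the members, so they carry no test.

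**Figure D3:**
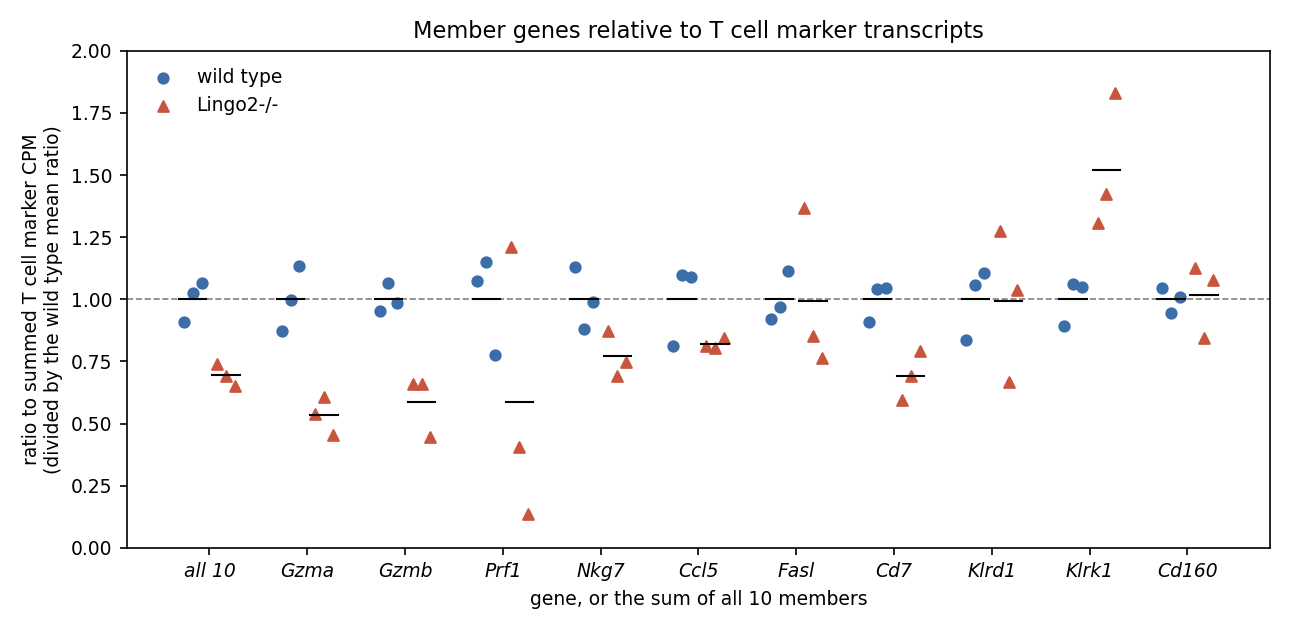
CPM of each member, and of all 10 summed, divided by the summed CPM of 16 T cell markers and scaled to the wild type mean of 1 (dashed line), for 3 wild type (circles) and 3 Lingo2-/- libraries (triangles), with lines at the means. Gzma, Gzmb, Nkg7 and Cd7 lie below 1 in all mutant libraries and Klrk1 lies above it.

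Other genes of the cytotoxic pathway were tested in the same fit. Of 136 listed genes that are not members, 131 were in the table by symbol and 107 passed the filter on low counts. By edgeR with Benjamini-Hochberg adjustment over all tested genes, 33 of the 107 fell and none rose, where 1.52% of all tested genes fell and 1.04% rose. The lists were chosen with earlier results of these data known, so this count is a description and no independent support. The median log2 fold change of these 107 genes was −0.49. Of the 33, 16 were still called without mutant replicate 2 and 17 without mutant replicate 3.

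Among other granzymes, Gzmk, which lies 70627 bases from Gzma on chromosome 13, had 4.67 ± 1.39 CPM in wild type against 1.41 ± 0.234 and fell (−1.73 ± 0.29, edgeR adjusted p = 0.00911). That call ended without mutant replicate 3 (0.0531). No read was counted on Gzmd, Gzme, Gzmf, Gzmg or Gzmn in any library. Of the 10 genes listed for granule content and granzyme processing 4 fell, and only 2 of these, Srgn and Cst7, have a role of that kind. Srgn is the proteoglycan core that packs granzymes (−1.70 ± 0.13, edgeR adjusted p = 7.09e-05). Cst7 is an inhibitor of the cathepsins that process granzymes (−1.45 ± 0.25), and its call ended without mutant replicate 2 (0.0536). The other two are Gimap7, a GTPase of lymphocytes (−1.68 ± 0.21), and Fgl2, a secreted fibrinogen-like protein (−0.93 ± 0.13), so the count of 4 does not describe granule genes alone. Srgn stood at 18.7, 21.97 and 22.8 CPM in the wild type and 6.88, 6.10 and 6.47 CPM in the mutant libraries, with a wide gap between the groups.

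Genes of granule transport and release did not follow the members as a list. Of 11 tested, 1 fell, the actin-binding coronin Coro1a of blood cells (−1.19 ± 0.12, edgeR adjusted p = 0.000332), and the list's median was −0.03. Of 7 tested secreted cytokines 3 fell, the chemokines Xcl1 (−1.87 ± 0.26, edgeR adjusted p = 0.00283) and Ccl4 (−1.64 ± 0.25) and the death ligand Tnfsf10, or TRAIL (−0.79 ± 0.11). Xcl1 had 4.04, 4.92 and 5.53 CPM in the wild type and 1.72, 0.995 and 1.04 CPM in the mutant libraries.

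Of 21 tested NK receptors that are not members 9 fell, with a list median of −1.16; 3 fell without mutant replicate 2 and 2 without mutant replicate 3. Cd96 (−1.50 ± 0.17, edgeR adjusted p = 0.000579) and Cd226 (−1.13 ± 0.16, edgeR adjusted p = 0.00261), receptors that share ligands of the nectin family, kept their calls whichever library was left out. Klre1, the nearest tested gene to Klrd1 on its left, fell by 1.72 on the log2 scale, a call that ended without mutant replicate 1 (0.0631) or 3 (0.0534). The costimulatory receptor Tnfrsf9 was at −1.80 ± 0.32, and its call ended without mutant replicate 2 (0.0629) or 3 (0.0520). Klrc1, the NKG2A chain that pairs with CD94 and was picked here after its value was seen, was at −1.21 ± 0.25 (edgeR adjusted p = 0.0275), and the call ended in 5 of the 6 fits that leave out a library (edgeR adjusted p = 0.0546 to 0.106). Klrc2, which also pairs with CD94 and was picked in the same way, was at −0.18 ± 0.28 (edgeR adjusted p = 0.778).

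Among receptor adaptors and proximal signalling genes, 10 of 15 tested fell and the median was −0.69. Without mutant replicate 2 the count was 3, and without mutant replicate 3 or wild type replicate 2 it was 5. The kinase Lck had 23.1 ± 0.518 CPM in wild type against 10.8 ± 1.47 and fell (−1.08 ± 0.12, edgeR adjusted p = 0.000569), the adaptor Lcp2 by 1.01 and the receptor gamma chain Fcer1g by 1.41 on the log2 scale. Cd247, the zeta chain, was at −1.21 ± 0.20 and lost its call without mutant replicate 2 (0.0507). The adaptor Hcst, or DAP10, through which NKG2D signals, was at −0.65 ± 0.34 (edgeR adjusted p = 0.337) and the related Tyrobp at −1.11 ± 0.24 (edgeR adjusted p = 0.0303). Hcst and Tyrobp were picked after their values were seen, and the call of Tyrobp ended in 5 of the 6 fits that leave out a library (0.0516 to 0.0969).

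The partners of the members on other cells mostly did not pass. Of 11 tested ligands and receptors 2 fell, and neither call was made without mutant replicate 2 or without mutant replicate 3. One was Sectm1b, a homologue of the human CD7 ligand that lies next to Cd7 on chromosome 11 (−0.57 ± 0.12, edgeR adjusted p = 0.0298). The call of Sectm1b ended when any library other than wild type replicate 2 was left out (0.0596 to 0.135). None of 15 genes of the death machinery in target cells passed (median −0.12), with the 2 of highest CPM, Xiap at −0.05 ± 0.09 and Casp8 at −0.12 ± 0.08. Of 15 transcription factors 3 fell, Ets1 (−1.09 ± 0.12, edgeR adjusted p = 0.000664), Id2 (−0.74 ± 0.11, edgeR adjusted p = 0.00525) and Ikzf2 (−0.45 ± 0.10, edgeR adjusted p = 0.0289), while the list's median was −0.10. The call of Ikzf2 ended without wild type replicate 2 or any one mutant library (0.0629 to 0.111).

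**Figure D4:**
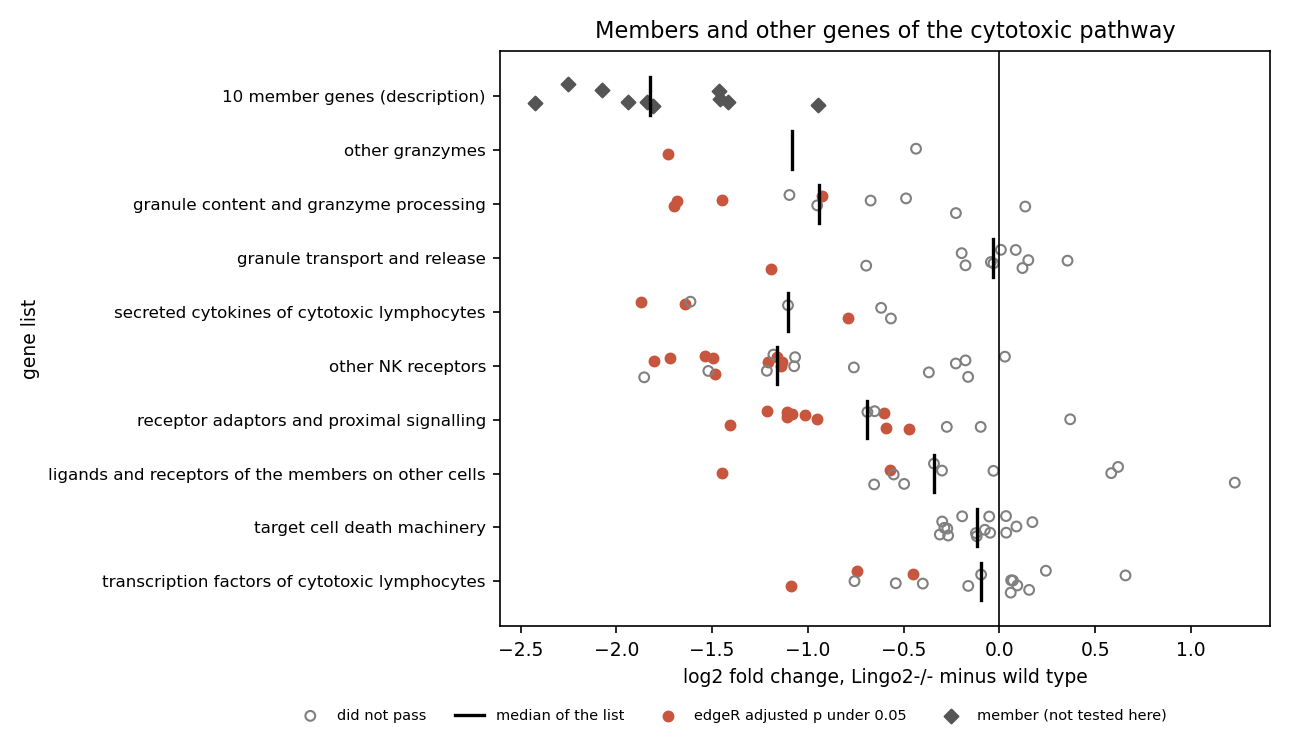
Log2 fold change, Lingo2-/- minus wild type, of the 10 members and of tested genes in 9 lists of the cytotoxic pathway. Diamonds are the members, shown without a test result. Filled points have an edgeR adjusted p under 0.05, and a line marks each list's median. Medians run from −1.83 for the members to −0.03 for granule transport and release, and every filled point lies below 0.

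On the chromosomes, the nearest tested gene on each side of each member gave 18 neighbours that are not members. Of these 3 fell, Gzmk beside Gzma, Klre1 beside Klrd1 and Sectm1b beside Cd7, and none rose. The profile over the 6 libraries, as log2 CPM centred on each gene's mean, was closest to the members' mean profile for Xcl1 (root mean square difference 0.0963 log2 units), Gimap7 (0.0994), the interleukin receptor chain Il2rb (0.145), the delta chain constant gene Trdc (0.162), Cd96 (0.171), the coreceptor Cd8a (0.175), the beta chain constant gene Trbc1 (0.190) and Srgn (0.195). Among the members the same distance was smallest for Nkg7 (0.151) and largest for Prf1 (0.641) and Klrk1 (0.521).

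Marker lists of other cells were read in the same libraries. Epithelial markers summed to 4317 to 5290 CPM in the wild type and 4312 to 5156 CPM in the mutant libraries, and none of 10 passed, with Krt8 at 0.04 ± 0.14 and Epcam at −0.08 ± 0.14. The fraction thus held its labelled epithelial transcripts in both genotypes. The NK cell list, whose 7 genes are all in the lists above, summed to 6.98 to 7.72 CPM in the wild type and 1.73 to 2.82 CPM in the mutant libraries. Its defining gene Ncr1 was under the filter on low counts, at 0.571 ± 0.248 and 0.180 ± 0.147 CPM. Of 2 tested NK genes 1 fell, Klre1, while Klrb1c was at −1.86 ± 0.56 (edgeR adjusted p = 0.129).

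Mast cells can also carry granzyme transcripts. Their list summed to 55.9 to 61.8 CPM in the wild type and 63.5 to 73.2 CPM in the mutant libraries. Most of it was Kit (51.4 ± 4.55 and 62.0 ± 3.59 CPM), so the sum says little of the other mast cell genes. None of 5 tested genes passed and 3 had values below 0, with the protease Mcpt1 at −0.26 ± 0.30. Under the filter on low counts, Cpa3 was at 0.615 ± 0.243 and 0.203 ± 0.125 CPM, and Fcer1a at 0.0878 ± 0.0831 and 0.149 ± 0.0502 CPM. Cpa3 and Fcer1a were picked after their values were seen. Of 5 tested genes of other innate lymphoid cells none passed and 3 had values below 0 (Il17rb 0.40 ± 0.18). Gata3 at −1.18 ± 0.38 and Il7r at −0.55 ± 0.25, picked after their values were seen, were lower in every mutant library. Il22 had at most 1 read in any library. The B and plasma cell list (Ighm −0.15 ± 0.21, Igha 0.73 ± 0.23) had no gene past the test. Neither had the list of neutrophils and eosinophils (Ly6g −0.83 ± 0.60, Siglecf 0.90 ± 0.27). Of 7 tested macrophage and dendritic cell genes 1 fell, Itgax (−0.99 ± 0.20, edgeR adjusted p = 0.0245), which gut lymphocytes can also carry, and its call ended without wild type replicate 2 or mutant replicate 2 or 3 (0.0749 to 0.100), while Lyz2 was at −0.0095 ± 0.36 and Csf1r at −0.24 ± 0.26. Fibroblast, muscle and endothelial markers summed to 219.6 to 633 CPM in the wild type and 136 to 252 CPM in the mutant libraries, with overlapping ranges, and the mutant mean was 38.5% of wild type, beside 34.7% for the T cell list. All 9 tested genes had values below 0 (median −0.82) and none passed by edgeR (Col3a1 −1.49 ± 0.51, edgeR adjusted p = 0.228, and Col1a2 −1.39 ± 0.59). Wild type replicate 3 was the lowest wild type library for this list, and without it 1 gene, Col3a1, passed (−1.85 ± 0.24, edgeR adjusted p = 0.00691). The part of these cells in the members' difference was not tested.

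**Figure D5:**
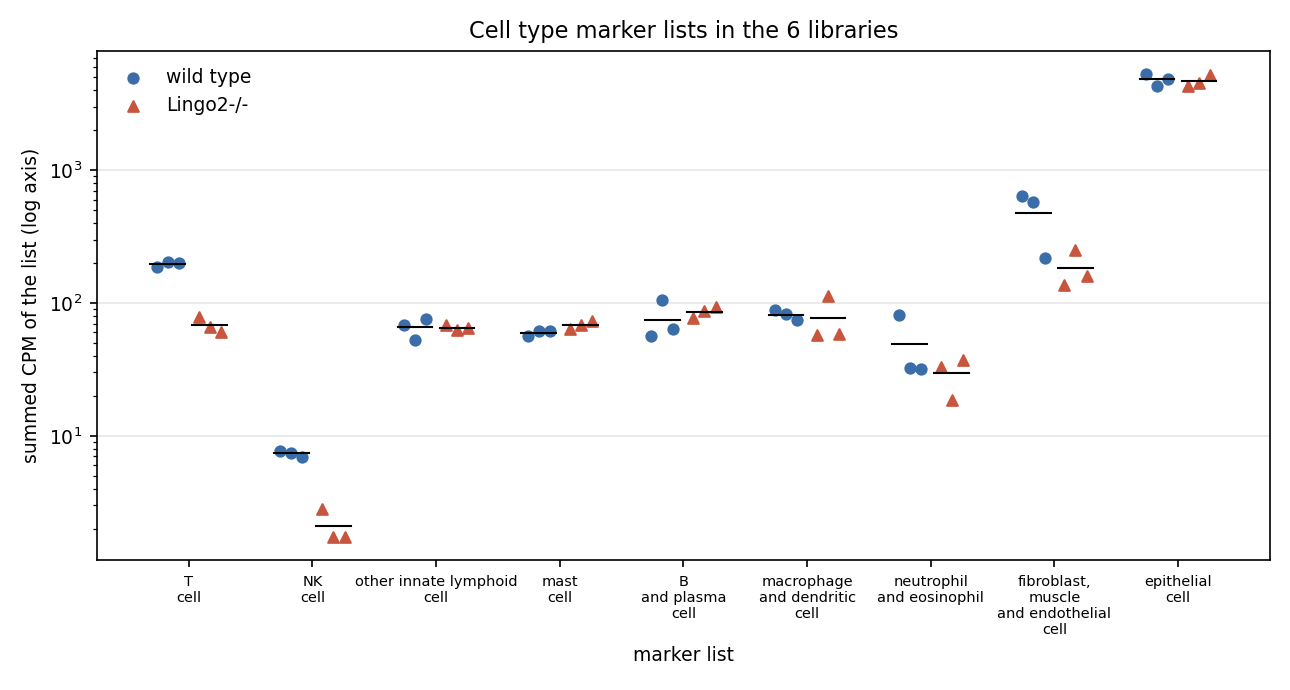
Summed CPM of each cell type marker list (log axis) in 3 wild type (circles) and 3 Lingo2-/- libraries (triangles), with lines at the means. The T cell and NK cell lists lie lower in every mutant library, and the epithelial list overlaps between the genotypes.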

How the data were processed

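Total RNA of the washed colon epithelial fraction was sequenced in 3 wild type and 3 Lingo2-/- libraries. Per the labels' protocols, libraries came from a stranded total RNA kit with ribosomal RNA removal. Per the submitters' processing notes, the authors used Trimmomatic 0.39, STAR, HTSeq and DESeq2 with build GRCm38. For annotation release and strand setting the sources used here give nothing. The deposited counts are whole reads per gene, and their 5 summary lines were left out. The deposited comparison holds the authors' normalized signal (each library's counts multiplied by 1 constant, to a relative tolerance of 1e-06 for 100% of values), log2 fold changes, test score and p-values. Of it only gene symbols, the factor check and the members' log2 fold changes were used.

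The count model was edgeR 4.0.16 under R 4.3.3 (filterByExpr, TMM, robust quasi-likelihood fit by genotype) for 16757 genes, with Benjamini-Hochberg adjustment and a threshold of 0.05. The script was tested on simulated data. The SE is the log2 fold change over the square root of F. CPM divides counts by gene reads times the TMM factor, with SDs over 3 libraries. Depth was 7060769 to 28029583 gene reads. Positions and exon lengths came from GENCODE M21, and 45232 of 46078 gene rows had a symbol.

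The members, gene lists and tests were chosen with earlier results of these data known. The text names all members, up to 4 called genes of each pathway list (or the 2 most abundant), up to 3 called and the 2 most abundant genes of each marker list, and the 8 genes with a mean log2 CPM of at least 1 (prior count 2) whose profile is closest to the members' mean. Of the genes this rule names, 2 are not reported here. Others are named as picked after their values were seen. No replicates of a group agreed within sampling noise (chi-square per degree of freedom 8.40 to 19.4). Alternatives were size factors from DESeq2, upper quartile scaling, no filter, at least 1 CPM in 3 libraries, a replicate block, dispersions that are not robust, the DESeq2 1.42.0 Wald test, mitochondrial genes left out, each library left out and the longest transcript as gene length. Plain CPM without TMM factors was added after seeing the data.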

Additional observations from a re-analysis of the deposited data

How the results depend on the processing

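The members' median log2 fold change stayed between −2.01 and −1.64 in all 14 alternatives, and all 10 members stayed lower in every mutant library under the other scalings, plain CPM included. The ratio of members to T cell markers does not move with scaling, which cancels within a library. Over all genes, 430 were called, 1493 with no filter and 656 by the DESeq2 Wald test, and 174 to 674 when each library in turn was left out, lowest without mutant replicate 2 and highest without wild type replicate 3. The pathway count of 33 ranged from 16 to 33 over the same leave-one-out fits. The cause was not tested. Same-numbered libraries had deviations from their group means correlated at −0.126, 0.128 and −0.0220. Differently numbered libraries had −0.1555 to 0.1875. With so few libraries these values cannot decide whether the replicate numbers pair the samples. With the replicate block 360 of all tested genes were called, 28 of them pathway genes. Of the 10 members 7 were called, a count that supports nothing, since they were chosen on this comparison. Klrc1 (0.0588), Tyrobp (0.0634), Ikzf2 (0.0546) and Itgax (0.0558) then passed the threshold of edgeR's adjusted p no longer.

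Marker genes with values near 0 changed sign. Leaving out each library in turn moved Ighm between −0.33 and 0.12, Lyz2 between −0.51 and 0.21, Krt8 between −0.062 and 0.10, and Epcam between −0.17 and 0.028. Depth limits the rare genes most: Prf1 had 1 to 19 reads in the mutant libraries.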
